A study of Homo sapiens with 12 samples.

Results

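The intermediate filament genes KRT5, KRT7, KRT8, KRT14, KRT17, KRT18, KRT19, VIM, DES and NES were followed through RNA sequencing of SW872 cells, a human liposarcoma line. These 10 genes were taken by symbol from the 58735 gene IDs of the count table. The set was chosen because KRT5 was among the largest rises when ZZZ3 was knocked down in cells with the TAZ-CAMTA1 fusion, so the values of that comparison are described here without a test. Testing needed an average of 5 counts or more across libraries, which 9 of the 10 genes reached. KRT19, with a mean of 5.08 counts, lay just inside this limit through TC shZZZ3 alone (the other 10 libraries averaged 3.5), and KRT14, with 0.667, lay outside.

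Every cell line behind these 12 libraries carried a fusion protein, and there was no group without one. TC lines stably expressed TAZ-CAMTA1 and YT lines YAP-TFE3, fusions of the transcriptional coactivators TAZ and YAP that mark epithelioid hemangioendothelioma, a vascular sarcoma. Each line also carried a stable short hairpin that was non-targeting (shNT) or directed against YEATS2 (shYEATS2) or ZZZ3 (shZZZ3), both part of ATAC, a complex that acetylates histones. The comparisons asked how loss of either subunit altered expression under each fusion. There were 6 groups of 2 libraries, TC shNT, TC shYEATS2, TC shZZZ3, YT shNT, YT shYEATS2 and YT shZZZ3. The lines were drug-selected populations rather than clones. The authors describe the knock-down libraries as biological duplicates, and state separate transduction for the biological triplicates of their sequencing. Neither they nor the labels say whether the 2 libraries of a group here came from separate transductions. P-values therefore measure only the spread between these libraries.

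Intermediate filaments are rope-like cytoskeletal polymers whose subunits differ by cell lineage. Keratins form obligate pairs of a type I and a type II chain in epithelia: KRT8 with KRT18 in simple epithelia and KRT5 with KRT14 in the basal layer of stratified epithelia. Vimentin (VIM) is the filament of mesenchymal cells, desmin (DES) that of muscle, and nestin (NES) is found in progenitor cells of the nervous system and muscle. Vimentin and keratins are also used in pathology to tell sarcoma from carcinoma.

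Total counts per library lay between 17451893 and 29294805. YEATS2 stood at 113 to 123 CPM (read counts scaled to library size with TMM, which corrects for composition) in the 4 shNT libraries and at 33.9 to 45.5 in the 4 shYEATS2 libraries. ZZZ3 was less even, with 25.6 and 60.4 CPM in TC shNT against 21.9 and 22.7 in TC shZZZ3, and 71.2 and 49.1 in YT shNT against 12.6 and 29.6 in YT shZZZ3. It was also below both YT shNT libraries in YT shYEATS2, at 31.4 and 30.7 CPM, so that YT shYEATS2 was not low in YEATS2 transcript alone. Of the liposarcoma markers, CDK4 stood at 262 CPM or more, HMGA2 at 60.9 or more and MDM2 at 24.9 or more by group mean. The adipocyte markers were mixed. LPL had group means from 78.7 to 214 CPM and PPARG from 39.9 to 81.7. CEBPA, PLIN1, FABP4 and ADIPOQ had group means of at most 3.69, 1.54, 0.148 and 0.0427 CPM, and the hormone gene LEP had no counts. The summed level of 6 leukocyte markers did not exceed 4.90 CPM in any library. Libraries also differed in the relative level of genes with GC-rich and GC-poor transcripts. The median log2 deviation of 3758 genes with at least 55% GC minus that of 5105 genes under 45% ran from -0.54 in YT shZZZ3 replicate 2 to 0.64 in TC shNT replicate 1. Both YT shNT libraries were on the negative side (-0.43 and -0.27) and both YT shYEATS2 libraries on the positive side (0.08 and 0.30).

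Upstream sequences are shown for KRT5, VIM and NES, the 3 members that were higher in YT shZZZ3 than in YT shNT by the test given below. RefSeq (GRCh38.p14) sequences of the 250 bases before the annotated start were available for 4 of the 10 genes, these 3 and an alternative start of KRT8. Each is written 5′ to 3′ on the strand of the gene, with capitals marking GC boxes (GGGCGG on either strand).
KRT5 promoter (chr12:52520395-52520644, minus strand): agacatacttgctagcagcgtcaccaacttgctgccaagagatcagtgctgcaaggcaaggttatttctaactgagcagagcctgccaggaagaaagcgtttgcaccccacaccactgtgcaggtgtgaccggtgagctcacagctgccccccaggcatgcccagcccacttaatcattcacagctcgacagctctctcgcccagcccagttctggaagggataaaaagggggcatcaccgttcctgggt
VIM promoter (chr10:17227991-17228240, plus strand): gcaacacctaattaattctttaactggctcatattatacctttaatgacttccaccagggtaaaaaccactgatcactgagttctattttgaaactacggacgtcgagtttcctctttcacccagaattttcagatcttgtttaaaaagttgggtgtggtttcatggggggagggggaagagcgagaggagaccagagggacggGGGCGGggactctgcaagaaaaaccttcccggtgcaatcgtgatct
NES promoter (chr1:156677408-156677657, minus strand): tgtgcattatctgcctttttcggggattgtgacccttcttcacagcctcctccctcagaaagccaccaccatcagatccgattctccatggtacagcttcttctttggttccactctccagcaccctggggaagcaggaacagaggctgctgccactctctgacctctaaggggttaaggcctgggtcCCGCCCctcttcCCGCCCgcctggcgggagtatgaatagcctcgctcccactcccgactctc
The NES window held 2 GC boxes and the VIM window 1. GC boxes occurred in 42.6% of 35116 promoter windows of the same length. None of the 4 windows matched the TEAD motif GGAATG, the E-box CACGTG, the AP-1 motif TGANTCA or the TATA box TATAAA, read on both strands. Those letters occurred in 11.9%, 6.34%, 6.57% and 10.7% of all windows.

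Per kilobase of transcript, vimentin was the most abundant member in this mesenchymal line, with a mean level of 641 CPM per kb over the 12 libraries. The simple-epithelial keratins were the next, with 317 for KRT18 and 70.8 for KRT8, followed by nestin with 27.9. The other members had mean levels between 0.0181 (KRT14) and 1.69 CPM per kb (KRT5). Of the summed CPM of the 7 member keratins, KRT8 and KRT18 together made up 97.3% to 99.8% in every library. SW872 cells therefore contained a large simple-keratin signal in all 6 groups beside vimentin, and keratins of basal or ductal epithelium at low levels. In such bulk samples a larger fraction of cells with a transcript and more transcript per cell cannot be told apart.

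**Figure D1:**
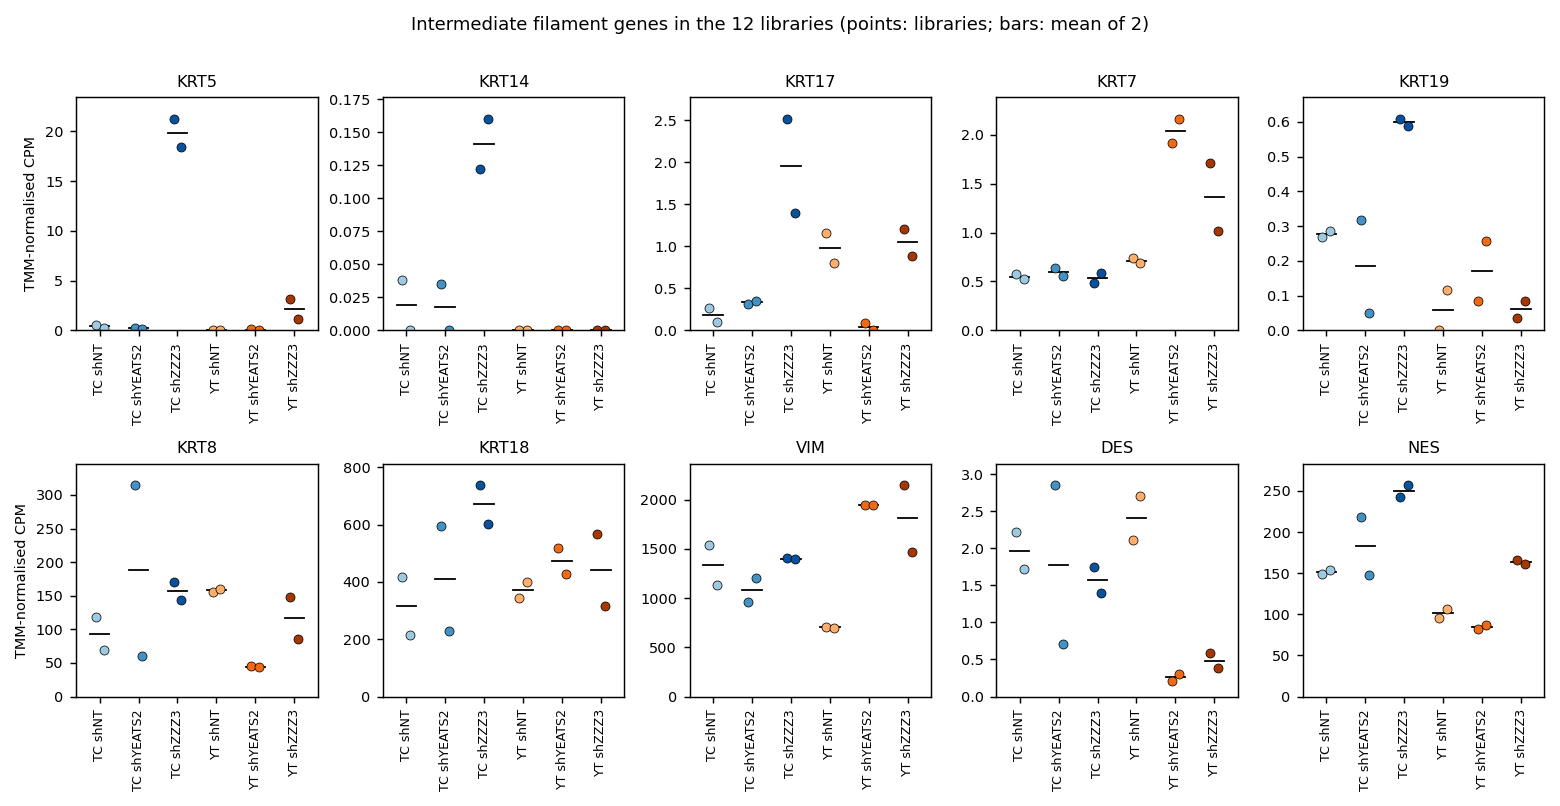
TMM-normalised CPM of the 10 intermediate filament genes (linear vertical axis from 0, scaled for each gene) in the 6 groups; points are libraries and bars the mean of 2. KRT5 reached 21.3 CPM in TC shZZZ3, VIM was lowest in YT shNT (709 and 696 CPM), and KRT8 was lowest in YT shYEATS2 (45.5 and 43.8 CPM).

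KRT5 (ENSG00000186081, chr12:52514575-52520530, minus strand, GRCh38), the type II keratin of basal epithelial cells, had its highest level in TC shZZZ3, with 21.3 and 18.4 CPM. In TC shNT it stood at 0.534 and 0.239 CPM, from 14 and 5 counts. The difference was 41.0-fold (log2 5.36 ± 0.51, SE), which is the value that chose the set. TC shYEATS2 held only 0.247 and 0.151 CPM, from 7 and 3 counts, and overlapped TC shNT.

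The YT lines give values of KRT5 that did not enter the choice. Neither YT shNT library held a KRT5 read, and YT shYEATS2 had 2 and 1. YT shZZZ3 had 86 and 28 counts, or 3.13 and 1.18 CPM, and both libraries were above all 4 other YT libraries. Set against a limit of 3 counts per library, KRT5 was at least 13.0-fold higher in YT shZZZ3 than in YT shNT (edgeR quasi-likelihood test, adjusted p = 0.0015). The call held in all 19 alternative analyses, with adjusted p up to 0.0179 without YT shNT replicate 2. YT shZZZ3 remained well below TC shZZZ3, with a mean of 2.16 ± 1.38 CPM against 19.8 ± 2.04 (SD, n = 2 each), and the order of KRT5 over the groups was TC shZZZ3, YT shZZZ3, TC shNT, TC shYEATS2, YT shYEATS2, YT shNT. TC shNT and TC shYEATS2 overlapped, and the last 2 groups were at or under 3 counts per library.

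KRT14 (ENSG00000186847, chr17:41582279-41586895), the type I partner of KRT5, was at the limit of detection throughout. It had 3 counts in each TC shZZZ3 library, 1 and 0 with TC shNT, the same with TC shYEATS2, and none in the 6 YT libraries. No test was made, and no library exceeded 0.160 CPM. KRT15, another type I keratin of basal epithelium, stood at 14.1 and 13.6 CPM in TC shZZZ3 and at 1.26 and 0.956 in TC shNT. In YT shZZZ3 it was at 0.873 and 0.973 CPM against 0.634 and 0.173 in YT shNT.

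KRT17 (ENSG00000128422, chr17:41619442-41624842), a type I keratin of hair follicles and of injured epidermis, followed a different order in YT cells. YT shNT held 22 and 14 counts (1.16 and 0.805 CPM), YT shZZZ3 33 and 21 (1.20 and 0.888 CPM), and YT shYEATS2 only 2 and 0. It was at least 7.03-fold lower in YT shYEATS2 than in YT shNT (adjusted p = 0.00331), a call that held in all 19 alternatives. YT shZZZ3 overlapped YT shNT (log2 difference 0.08 ± 0.48, adjusted p = 0.935). TC shNT had 7 and 2 counts, and YT shNT was 3.88-fold higher (log2 1.96 ± 0.62, adjusted p = 0.0339). That call was lost when the 2 groups were fitted alone (adjusted p = 0.0628) and without TC shNT replicate 1 (0.0538), TC shNT replicate 2 (0.0819), YT shNT replicate 1 (0.214) or YT shNT replicate 2 (0.0957). In TC shZZZ3 KRT17 had 62 and 26 counts, a 7.44-fold difference from TC shNT (log2 2.90 ± 0.57) that belongs to the comparison used for the choice. TC shYEATS2 had 9 and 7 counts. Pseudogenes of KRT17 (8 annotated, 6 with counts) summed to at most 0.239 CPM.

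KRT7 and KRT19, keratins of glandular and ductal epithelium, were scarce. KRT7 (ENSG00000135480, chr12:52232520-52252186, plus strand) lay between 0.487 and 0.634 CPM in the 6 TC libraries and at 0.739 and 0.690 in YT shNT. Both YT shYEATS2 libraries were higher, at 1.91 and 2.17 CPM, a 2.64-fold rise (log2 1.40 ± 0.36, adjusted p = 0.0122). The call did not hold without YT shNT replicate 1 (adjusted p = 0.0793), YT shNT replicate 2 (0.0826) or YT shYEATS2 replicate 2 (0.0687). YT shZZZ3 had 1.71 and 1.02 CPM, both above YT shNT, but the difference did not pass the test (log2 0.86 ± 0.36, adjusted p = 0.135). The KRT7 locus overlaps KRT86 on the same strand, a hair keratin with 2.76 to 23.8 CPM, so reads of the 2 genes may not be fully separated. KRT19 (ENSG00000171345, chr17:41523617-41528308) had at most 15 counts in any library. Its highest values were 15 and 11 counts in TC shZZZ3, against 7 and 6 in TC shNT and 0 to 5 in the YT libraries. Because TC shZZZ3 alone brought it over the count limit, its levels are given as a description.

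KRT8 (ENSG00000170421, chr12:52897187-52949954, minus strand), the type II keratin of simple epithelia, stood at 156 and 160.2 CPM in YT shNT. YT shYEATS2 held 45.5 and 43.8 CPM, and YT shZZZ3 148 and 85.9. The fall in YT shYEATS2 was 3.53-fold (log2 -1.82 ± 0.57, adjusted p = 0.0427). The size of this fall lay between -1.79 and -2.05 on the log2 scale in all alternatives, but the call was lost without YT shNT replicate 1 or 2 (adjusted p = 0.133 for each), YT shYEATS2 replicate 1 (0.184) or 2 (0.203), or TC shZZZ3 replicate 1 (0.0617) or 2 (0.0616). YT shZZZ3 was lower than YT shNT in both libraries without passing the test (log2 -0.43 ± 0.55, adjusted p = 0.684). The TC libraries were less even. TC shNT had 118 and 69.2 CPM, TC shYEATS2 315 and 60.1, and TC shZZZ3 170.2 and 144. TC shYEATS2 replicate 1 held the highest KRT8 level of all libraries and replicate 2 of the same group was below both TC shNT libraries. The log2 difference of TC shYEATS2 from TC shNT was 1.0 ± 0.56 (adjusted p = 1.0) and turned to -0.66 without TC shYEATS2 replicate 1. With no filter on low counts that difference was called (log2 0.98, adjusted p = 0.00446).

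KRT18 (ENSG00000111057, chr12:52948871-52952906, plus strand), the type I partner of KRT8, was not lower in YT shYEATS2. YT shNT held 343 and 401 CPM, YT shYEATS2 519 and 427, and YT shZZZ3 568 and 316. Neither difference passed the test (log2 0.35 ± 0.43, adjusted p = 0.595 for shYEATS2 and 0.25 ± 0.43, adjusted p = 0.775 for shZZZ3), although both YT shYEATS2 libraries were above both of YT shNT. With these 2 groups fitted alone, the first difference was called (adjusted p = 0.0272). In TC cells KRT18 was 416 and 215 CPM with shNT, 595 and 228 with shYEATS2, and 739 and 603 with shZZZ3. The last was 2.13-fold above TC shNT (log2 1.09 ± 0.43, no test), with both libraries above both controls.

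The ratio of KRT18 to KRT8, taken per kilobase within a library, separated YT shYEATS2 from all other groups. YT shYEATS2 had ratios of 14.4 and 12.3, YT shNT 2.78 and 3.16, and YT shZZZ3 4.84 and 4.64. In TC cells it was 4.45 and 3.92 with shNT, 2.39 and 4.80 with shYEATS2, and 5.48 and 5.29 with shZZZ3. These ratios are descriptions and were not tested. The 2 genes overlap head to head on opposite strands of chromosome 12. The kit kept strand, but how the authors' counting used strand is not given in the sources used here. Both genes also have many pseudogenes. Of 50 annotated for KRT8, 20 had counts that summed to 9.08 to 18.1 CPM per library, and of 67 for KRT18, 17 had counts that summed to 0.920 to 1.66 CPM.

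**Figure D2:**
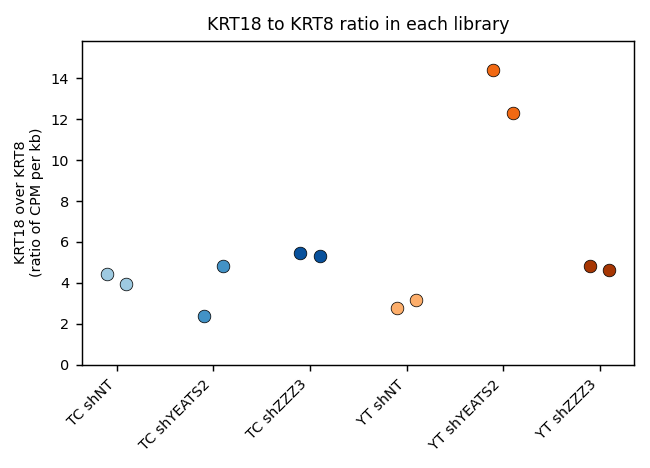
Ratio of KRT18 to KRT8 in each library, both as CPM per kb of transcript (linear axis from 0; each point is a library). The 2 YT shYEATS2 libraries, at 14.4 and 12.3, lie above the range of the other 10 libraries, 2.39 to 5.48.

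Vimentin (VIM, ENSG00000026025, chr10:17228241-17237593, plus strand) rose in both YT knock-downs. Its level was 709 and 696 CPM in YT shNT, the lowest of the 12 libraries. YT shYEATS2 held 1949 and 1948 CPM and YT shZZZ3 2152 and 1469.9 CPM, with no overlap. VIM rose 2.77-fold in YT shYEATS2 (log2 1.47 ± 0.23, adjusted p = 0.00129) and 2.58-fold in YT shZZZ3 (log2 1.37 ± 0.23, adjusted p = 0.00416). Both calls held in all 19 alternatives, with adjusted p up to 0.0183 and 0.0472, and both comparisons share the YT shNT libraries. TC shNT had 1539.7 and 1134 CPM, TC shYEATS2 965 and 1203, and TC shZZZ3 1409.9 and 1393, so the 6 TC libraries overlapped. Between the controls, VIM was 1.90-fold lower with YT (log2 -0.93 ± 0.23, adjusted p = 0.0282). This call was lost with the 2 groups alone (adjusted p = 0.0875) and without TC shNT replicate 1 (0.102), YT shNT replicate 1 (0.143) or 2 (0.153), or TC shZZZ3 replicate 1 (0.0545) or 2 (0.0546). An antisense transcript at the locus, VIM-AS1, lay between 0.518 and 1.78 CPM.

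Desmin (DES, ENSG00000175084, chr2:219418377-219426735, plus strand), the filament of muscle cells, moved against vimentin in YT cells. YT shNT held 40 and 47 counts (2.11 and 2.70 CPM), YT shYEATS2 5 and 6 (0.208 and 0.310 CPM), and YT shZZZ3 16 and 9 (0.582 and 0.381 CPM). Groups did not overlap. DES fell 7.24-fold in YT shYEATS2 (log2 -2.86 ± 0.64, adjusted p = 0.00479) and 4.34-fold in YT shZZZ3 (log2 -2.12 ± 0.57, adjusted p = 0.0252). The first call was lost without YT shYEATS2 replicate 1 (adjusted p = 0.0663). The second was lost without YT shNT replicate 1 (0.0882) or 2 (0.151) or YT shZZZ3 replicate 1 (0.0741) or 2 (0.0849). In TC cells DES overlapped between groups, and CPM values were 2.21 and 1.72 with shNT, 2.85 and 0.703 with shYEATS2, and 1.75 and 1.39 with shZZZ3.

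Nestin (NES, ENSG00000132688, chr1:156668763-156677407, minus strand) was above its control in both shZZZ3 lines. YT shNT held 95.5 and 107 CPM and YT shZZZ3 165 and 161, a 1.62-fold rise (log2 0.69 ± 0.19, adjusted p = 0.0419). This was the least firm member call. It was lost with the 2 groups alone (adjusted p = 0.0927), after correction for GC content (0.0747), and without either library of TC shZZZ3 (0.0781 for each), YT shNT (0.25 and 0.151), YT shYEATS2 (0.0668 and 0.0667) or YT shZZZ3 (0.0967 and 0.0772). TC shNT stood at 149 and 154 CPM and TC shZZZ3 at 242 and 257, a 1.65-fold difference (log2 0.72 ± 0.19) that belongs to the comparison used for the choice. With shYEATS2 it was 82.2 and 87.3 CPM under YT and 219 and 148 under TC, and neither passed the test against its control. Both YT shNT libraries were below both TC shNT libraries (log2 -0.58 ± 0.19, adjusted p = 0.0828).

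**Figure D3:**
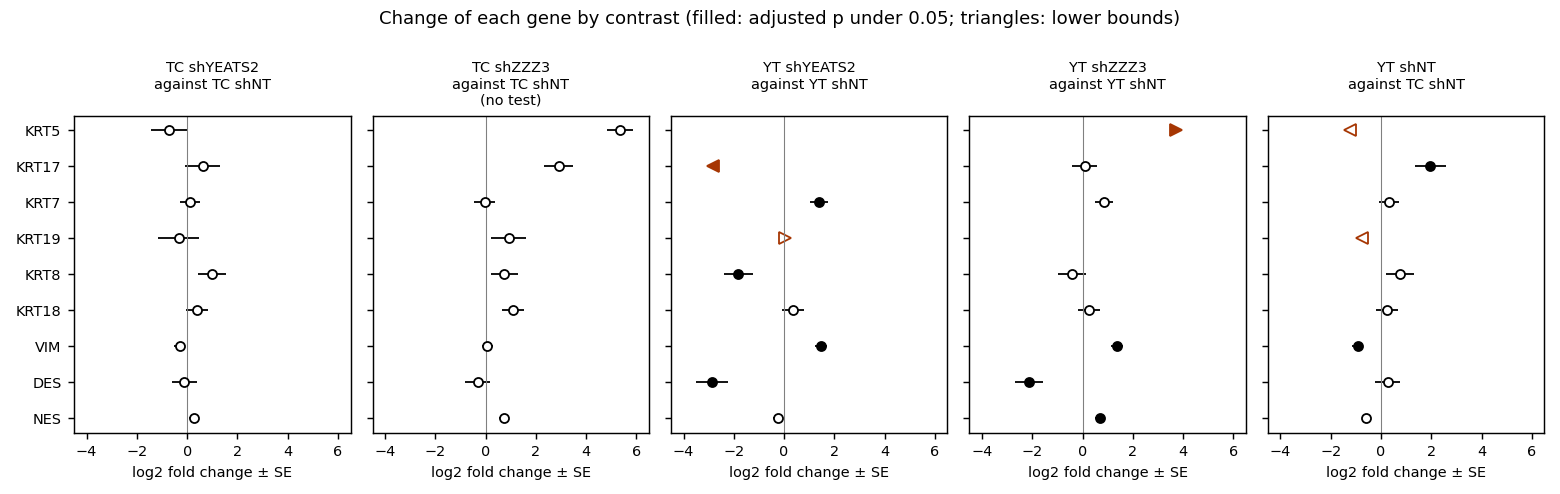
Log2 fold change with its SE for the 9 members that could be tested, in 5 comparisons. Filled symbols passed an adjusted p of 0.05, triangles are lower bounds against 3 counts per library, a missing symbol means that both groups were at 3 counts or fewer, KRT5 was tested only in YT shZZZ3, and nothing was tested in TC shZZZ3. VIM lies to the right and DES to the left in both YT knock-downs.

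Counted together, the share of members that changed depended on the comparison. In YT shYEATS2 against YT shNT, VIM and KRT7 rose and KRT8, KRT17 and DES fell, 2 and 3 of the 9 members over the count limit. Of all genes tested there, 9.61% were called higher and 11.1% lower. In YT shZZZ3, KRT5, VIM and NES rose and DES fell, 3 and 1 of 9, beside 4.4% called higher and 5.62% lower. KRT5 chose the set by its rise with the same hairpin in TC cells, and without it 3 of 8 were called in YT shZZZ3. The 9 include KRT5 in YT shYEATS2 and KRT19 in YT shZZZ3, which were given no test because both groups compared were at 3 counts or fewer. Between the controls, KRT17 was higher and VIM lower in YT shNT, 1 and 1 member, beside 5.58% and 3.65%. In TC shYEATS2 no member was called by edgeR, none of the 8 members tested there had an unadjusted p under 0.05, and DESeq2 called none of those to which it gave an adjusted p. Of all genes, 0.0326% were called higher and 0.0109% lower in that comparison.

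The effect of shYEATS2 was also compared between the fusions, as the log2 difference in YT minus that in TC. Of all genes tested, 3.53% were called higher and 5.84% lower in this interaction. VIM was 1.77 ± 0.32 higher (adjusted p = 0.00581), a call that held in all 19 alternatives. DES was lower by -2.75 ± 0.82 (adjusted p = 0.0346) and KRT8 by -2.82 ± 0.79 (adjusted p = 0.0472), and both shrank without TC shYEATS2 replicate 1, to -1.44 (adjusted p = 0.129) and -1.15 (adjusted p = 0.155). KRT8 also missed the threshold without TC shNT replicate 2 (-2.47, adjusted p = 0.0774), either TC shZZZ3 library (-2.82 for each), either YT shNT library (-2.82 and -2.79) or either YT shYEATS2 library (-2.83 and -2.78). DES missed it likewise without either TC shZZZ3 (adjusted p = 0.0549 and 0.0547), YT shNT (0.0763 and 0.118) or YT shYEATS2 library (0.166 and 0.110). KRT17 was called lower (adjusted p = 0.013), and without YT shYEATS2 replicate 2 the adjusted p was 0.0532. KRT7, KRT18 and NES did not pass.

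Other keratins were then examined, all 48 further keratin genes of the table, of which 10 had enough counts to be tested. One of them, KRT4, a keratin of the oral and oesophageal lining, averaged 3.6 counts outside YT shYEATS2 and so reached the limit only through that group. Its level there was 0.689 CPM by group mean, with no counts in YT shNT, and no test of it is used. Of the other 9, 4 rose in YT shYEATS2 and 2 in YT shZZZ3, where 9.61% and 4.4% of all genes were called higher, and none fell. The median log2 difference in YT shYEATS2 was 1.30 with KRT4 included, against -0.01 over all genes. KRT81, a hair keratin, was the most abundant of them and stood at 76.9 and 82.7 CPM in YT shYEATS2 against 21.8 and 21.9 in YT shNT (log2 1.87 ± 0.37, adjusted p = 0.00478). KRT81 and KRT86 are close paralogs, and reads may have been shared between them. KRT75, a keratin of the hair follicle, rose in both YT knock-downs, from 0.211 and 0.345 CPM in YT shNT to 4.20 and 3.61 in YT shYEATS2 (log2 3.45 ± 0.43, adjusted p = 1.68e-04) and 4.15 and 3.30 in YT shZZZ3 (log2 3.39 ± 0.43, adjusted p = 6.47e-04). KRT80, found in many epithelia, rose as well, from 3.54 and 4.26 CPM to 12.2 and 11.1 (log2 1.56 ± 0.29, adjusted p = 0.00295) and to 16.6 and 10.1 (log2 1.76 ± 0.29, adjusted p = 0.00313). KRT15 rose in YT shYEATS2, from 0.634 and 0.173 CPM to 4.16 and 2.94 (log2 2.87 ± 0.58, adjusted p = 0.00342).

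Between the controls, KRT80 and KRT81 were higher with YT, by log2 1.41 ± 0.31 (adjusted p = 0.0135) and 1.67 ± 0.38 (adjusted p = 0.0176), calls lost in 2 of 19 alternatives each (adjusted p up to 0.112 and 0.0954, without YT shNT replicate 2). In TC shZZZ3 KRT75 stood at 4.43 and 3.42 CPM against 0.381 and 0.478 in TC shNT, and KRT80 at 7.19 and 7.32 against 1.60 and 1.19. KRT75, KRT80, KRT15 and KRT5 were thus above their control in both shZZZ3 lines. KRT15 did not pass the test in YT shZZZ3 (log2 1.02 ± 0.64, adjusted p = 0.29). KRT81 in TC shZZZ3, at 5.08 and 4.06 CPM, was below both TC shNT libraries (8.35 and 5.21). Of the 48 keratins, 9 had no counts in any library.

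**Figure D4:**
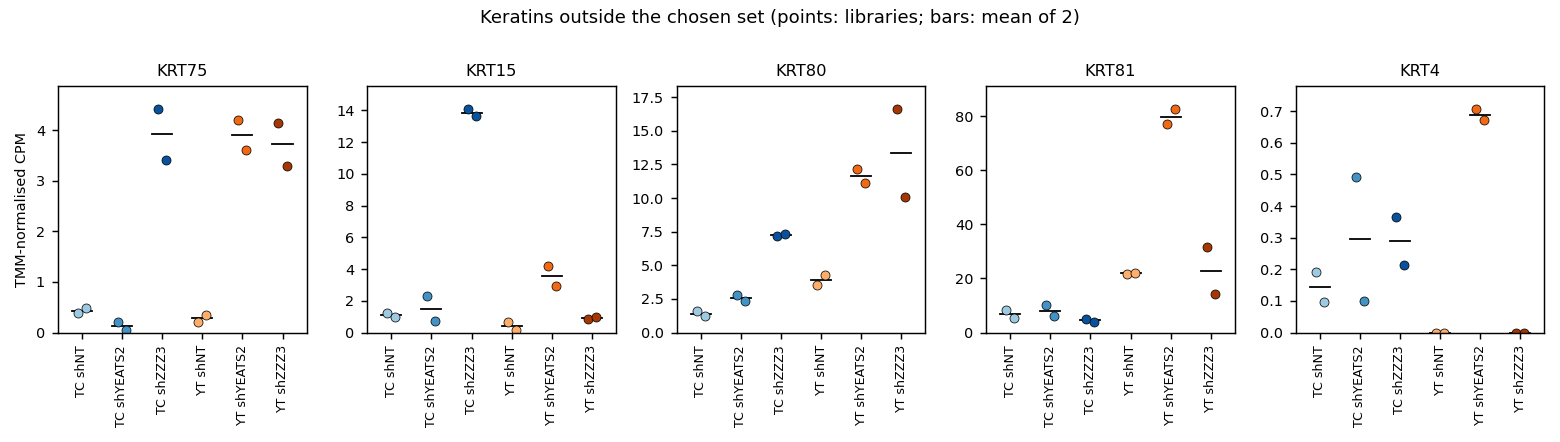
TMM-normalised CPM of 5 keratins outside the chosen set by group (linear axis from 0, scaled for each gene; points are libraries and bars the mean of 2). KRT75 and KRT80 are raised in both YT knock-downs and KRT81 in YT shYEATS2, at 76.9 and 82.7 CPM.

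Among 13 other intermediate filament genes, 12 were tested. In YT shYEATS2, 3 rose and 2 fell, and in YT shZZZ3 2 rose, beside 9.61% and 11.1% of all genes higher and lower in the first comparison and 4.4% higher in the second. Of the neurofilament genes, NEFL and NEFM fell in YT shYEATS2, by log2 -3.00 ± 0.48 (adjusted p = 8.08e-04) and -2.31 ± 0.55 (adjusted p = 0.00623). NEFH, with far higher group means from 64.4 to 103 CPM, was not called in either YT knock-down. INA rose in YT shYEATS2 (log2 1.21 ± 0.32, adjusted p = 0.0194). NEFL stood at 3.27 and 3.62 CPM with YT shNT, 0.166 and 0.568 with YT shYEATS2 and 14.98 and 13.6 with TC shZZZ3. Lamin B1 (LMNB1), a filament of the nuclear lamina, rose in both YT knock-downs as VIM did, from 45.7 and 42.7 CPM with shNT to 87.7 and 82.7 with shYEATS2 (log2 0.95 ± 0.19, adjusted p = 0.0046) and 161 and 168 with shZZZ3 (log2 1.89 ± 0.19, adjusted p = 3.19e-04). Like VIM it was lower in the YT than in the TC control (log2 -1.61 ± 0.19, adjusted p = 4.47e-04). The lens filament gene BFSP2, 1 of the 3 counted as higher in YT shYEATS2, averaged 4.6 counts outside TC shNT. BFSP2 reached the count limit only through that group, so beyond that count no test of it is used. Without it, LMNB1 and INA were the genes of this list called higher in YT shYEATS2. Its levels were 0.416 and 0.258 CPM in YT shYEATS2 against 0 and 0.0575 in YT shNT. Calls were lost in 2 of 19 alternatives for NEFM (least firm without YT shYEATS2 replicate 1). In YT shYEATS2 they were lost in 3 for INA and 1 for LMNB1 (without YT shNT replicate 2).

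Filaments are anchored to the membrane by desmosomes and linker proteins, and 15 of 20 such genes were tested. The desmosomal cadherin DSG2 stood at 48.7 and 43.0 CPM under shNT, 0.291 and 0.258 under shYEATS2 and 5.93 and 7.02 under shZZZ3 in YT cells. It fell in YT shYEATS2 (log2 -6.97 ± 0.70, adjusted p = 5.97e-05) and in YT shZZZ3 (log2 -2.81 ± 0.51, adjusted p = 0.00576), and its YT control was 16.8-fold above the TC control (adjusted p = 0.00105). The desmosomal plaque gene PKP1 fell with it, by at least 8.42-fold in YT shYEATS2 (adjusted p = 0.00688) and by log2 -2.74 ± 0.78 in YT shZZZ3 (adjusted p = 0.0152). PKP1 had few reads in YT cells: 13 and 29 counts under shNT, 3 and 0 under shYEATS2, 1 and 4 under shZZZ3. Outside the YT controls it averaged 5.0 counts, level with the count limit. DSP and PKP2, desmosomal genes with group means from 42.8 to 74.4 and from 14.9 to 25.7 CPM, were called in neither YT knock-down. The plakins PPL (log2 1.74 ± 0.36, adjusted p = 0.00542) and EVPL (at least 4.48-fold, adjusted p = 0.0138), which tie keratins to the cell envelope, rose in YT shYEATS2, so that with ITGB4 3 genes of this list rose and 2 fell there, beside 9.61% and 11.1% of all genes. Calls were lost in 2 of 19 alternatives for PPL (adjusted p up to 0.064, without YT shNT replicate 2), 3 for EVPL (0.134, without YT shNT replicate 1) and 2 for PKP1 in each knock-down (0.0678 and 0.157, without YT shNT replicate 2). Plectin (PLEC), which links several kinds of filament, and plakoglobin (JUP), a plaque protein of desmosomes and adherens junctions, were abundant throughout, with group means from 359 to 505 CPM and from 365 to 486 CPM.

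Epithelial transcription and splicing regulators were read beside the keratins, 15 of 18 tested. GRHL3 averaged 3.9 counts outside YT shNT and reached the count limit only through that group, so no test of it is used. YT shNT held 17 and 11 counts, YT shYEATS2 had 4 and 2, and YT shZZZ3 had 10 and 8. Of the other 14 genes, 1 rose and 2 fell in YT shYEATS2, counts close to the 9.61% and 11.1% of all genes called higher and lower, and 1 rose and 1 fell in YT shZZZ3 (4.4% and 5.62%). KLF5, which drives basal epithelial growth, rose from 6.44 and 7.42 CPM in YT shNT to 43.4 and 36.4 in YT shYEATS2 (log2 2.51 ± 0.26, adjusted p = 9.81e-05) and to 22.6 and 21.8 in YT shZZZ3 (log2 1.67 ± 0.26, adjusted p = 0.00236). TP63, the regulator of stratified epithelium that is known to act on KRT5 and KRT14, stood at 20.6 and 19.4 CPM in YT shNT and 7.24 and 5.32 in YT shYEATS2 (log2 -1.66 ± 0.26, adjusted p = 0.00126). In YT shZZZ3, where KRT5 was raised, TP63 was at 12.4 and 11.6 CPM, below both YT shNT libraries. In TC shZZZ3 it was at 35.4 and 34.0 CPM against 5.19 and 6.26 in TC shNT. The epithelial splicing factor ESRP1 fell in both YT knock-downs, by log2 -1.61 ± 0.25 (adjusted p = 0.00106) and -2.43 ± 0.26 (adjusted p = 4.00e-04). The 18 genes summed to 97.2 and 98.1 CPM with YT shNT, 118 and 105 with YT shYEATS2, 99.3 and 77.8 with YT shZZZ3, and highest in TC shZZZ3 at 129 and 124. Their part in the keratin values was not tested.

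Of 10 mesenchymal regulators, all tested, 3 rose and 2 fell in YT shYEATS2, where 9.61% and 11.1% of all genes were called higher and lower, and 2 rose and 1 fell in YT shZZZ3 (4.4% and 5.62%). N-cadherin (CDH2) rose with VIM in both YT knock-downs. It went from 8.08 and 9.72 CPM in YT shNT to 70.3 and 72.5 in YT shYEATS2 (log2 2.99 ± 0.21, adjusted p = 9.87e-06). In YT shZZZ3 it stood at 17.8 and 18.99 CPM (log2 1.04 ± 0.20, adjusted p = 0.00703). Between the controls these genes went opposite ways. VIM was lower in YT shNT, whereas CDH2 was higher than in TC shNT, at 4.04 and 4.78 CPM (adjusted p = 0.0103). That CDH2 call was lost in 4 of 19 alternatives. The transcription factor TWIST1 rose by log2 1.98 ± 0.27 with YT shYEATS2 (adjusted p = 4.52e-04) and 1.37 ± 0.27 with YT shZZZ3 (adjusted p = 0.00747). PRRX1 rose by 1.78 ± 0.48 in YT shYEATS2 (adjusted p = 0.0213). The repressors of E-cadherin SNAI2 and ZEB2, named after their values were seen, fell in YT shYEATS2, by log2 -1.20 ± 0.20 (adjusted p = 0.00174) and -1.18 ± 0.30 (adjusted p = 0.0169). Fibronectin (FN1) fell in YT shZZZ3, by log2 -1.63 ± 0.28 (adjusted p = 0.00461). Calls were lost in 4 of 19 alternatives for PRRX1 (adjusted p up to 0.162, without YT shNT replicate 2), 4 for ZEB2 (0.151, without YT shYEATS2 replicate 2), 1 for FN1 (0.059, without YT shNT replicate 2) and, in YT shZZZ3, 1 for CDH2 (0.102) and 2 for TWIST1 (0.0909), both highest without YT shNT replicate 1.

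The fall of DES was read beside 16 other muscle genes, of which 7 were tested. In YT shYEATS2 4 fell, and in YT shZZZ3 2 fell, beside 11.1% and 5.62% of all genes. CRYAB, the chaperone of desmin, stood at 417 and 421 CPM in YT shNT and at 8.74 and 6.55 in YT shYEATS2 (log2 -5.76 ± 0.74, adjusted p = 3.57e-04). The Z-disc gene ACTN2 fell by log2 -4.10 ± 0.67 (adjusted p = 5.53e-04) and -2.47 ± 0.52 (adjusted p = 0.00832), and filamin C (FLNC) by -1.38 ± 0.24 (adjusted p = 0.00256) and -1.15 ± 0.24 (adjusted p = 0.0124). In YT shZZZ3 the calls of ACTN2 and FLNC were lost in 2 and 3 of 19 alternatives (adjusted p up to 0.0806 without YT shNT replicate 1 and 0.0836 without YT shNT replicate 2). PAX7 had no counts in YT shYEATS2 and was at least 10.1-fold lower there than in YT shNT (adjusted p = 0.00224). The list summed to 1169.8 and 1184 CPM with YT shNT, 298 and 325 with YT shYEATS2 and 569 and 377 with YT shZZZ3. These sums mostly reflect FLNC and CRYAB, with FLNC at 730 and 748 CPM in YT shNT, and not the list at large. Of the defining factors, MYF5 and MYF6 had no counts in any library, and MYOD1 and MYOG had at most 15 and 8. The sarcomeric actin ACTC1 had none, whereas MEF2C had group means from 10.8 to 19.3 CPM.

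**Figure D5:**
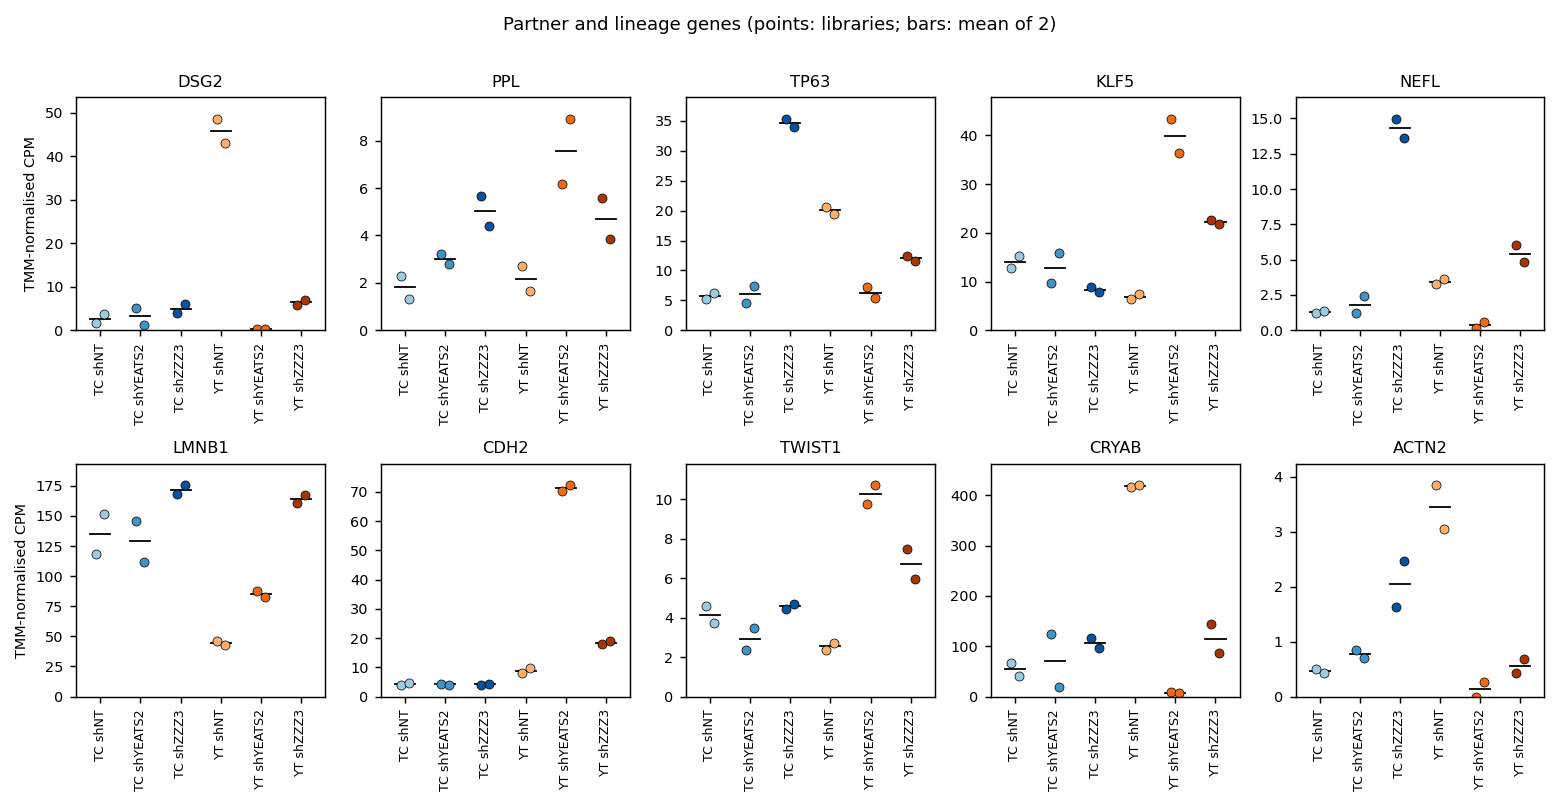
TMM-normalised CPM of 10 partner and lineage genes by group (linear axis from 0, scaled for each gene; points are libraries and bars the mean of 2). DSG2 and CRYAB are highest in YT shNT (48.7 and 43.0, and 417 and 421 CPM) and lower in each library of both YT knock-downs, where CRYAB in YT shZZZ3 (144 and 85.8 CPM) did not pass the test, whereas KLF5, LMNB1, CDH2 and TWIST1 are higher in both.

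In TC shYEATS2 none of the 91 tested genes of these and the remaining lists was called by edgeR, 7 had an unadjusted p under 0.05, and DESeq2 called none.

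GC content was high in most members, from 55.7% in KRT18 to 62.9% in DES, and 46.9% in VIM, and the YT shNT libraries were low for GC-rich genes. After correction for GC content the calls in YT shYEATS2 held for VIM (adjusted p = 3.24e-04), KRT7 (0.0128), KRT8 (0.00933), KRT17 (8.49e-04) and DES (9.14e-04). In YT shZZZ3 they held for KRT5 (2.28e-04), VIM (9.24e-04) and DES (0.00543).

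The genes whose group means most resembled those of KRT5 were TCP1 (Pearson r = 0.996), a subunit of the chaperonin that folds actin and tubulin, FERMT1 (0.992), the epithelial adhesion protein kindlin-1, and REPS1 (0.991). The likeness was measured over 6 group means of log2 CPM among 13258 genes and is a description. Those means include TC shNT and TC shZZZ3, the comparison that chose the set. YT shNT held no KRT5 reads, so its KRT5 value rests on the constant added before taking logs. How high r would be by chance for the best of so many genes was not tested. FERMT1 had its highest mean in TC shZZZ3 (27.7 CPM), followed by YT shZZZ3 (19.5), TC shNT (15.2), TC shYEATS2 (14.5), YT shYEATS2 (12.5) and YT shNT (9.78), the same order as KRT5 but over a much narrower range.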

How the data were processed

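RNA was sequenced from 12 libraries of SW872 cells, grouped from their labels. The authors made stranded poly(A) libraries, aligned reads with HISAT2 to hg38 in the bcbio pipeline and deposited raw counts per gene. Whether the whole-number counts came from the alignments or from Salmon, and how strand and multiply mapped reads were handled, is not given in the sources used here. The per-library and combined tables did not differ.

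Genes averaging 5 counts or more (18415 of 58735) were normalised by TMM and fitted over all 6 groups with edgeR's quasi-likelihood test (version 4.0.16, R 4.3.3, robust, prior count 2, 6 residual degrees of freedom). Tests were two-sided, and P values were adjusted by Benjamini-Hochberg over all genes, with a threshold of 0.05. Fold changes against a group at 3 or fewer counts in each library are lower bounds against 3 counts. Such bounds cover counting error only. CPM per kb used the canonical transcript length of GENCODE release 44, which also gave coordinates. Alternatives were DESeq2 (version 1.42.0), its size factors, library totals, no filter, the compared groups alone, a replicate block, each library left out and, chosen after seeing the data, a GC correction.

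The members and gene lists were chosen with earlier results of these data known. List genes were named where called in a comparison other than TC shZZZ3, with groups that did not overlap, at most 4 a list (8 for keratins) by size of change. SNAI2, ZEB2 and ITGB4 were named after their values were seen. Likeness used log2(CPM + 0.05). In simulated data for YT shZZZ3 against YT shNT with 18415 genes, 158 of 200 genes changed 4-fold were called (79.0%), with 10 unchanged ones. The simulation gave each gene the same spread in all groups and left out the GC differences between libraries. These figures may therefore not hold for the data.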

Additional observations from a re-analysis of the deposited data

Results flagged for a closer look

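The effect of shYEATS2 differed between the fusions for 4 members by the interaction test of edgeR's quasi-likelihood fit, with adjusted p-values over all genes. As log2 difference in YT minus that in TC, KRT8 stood at -2.82 (adjusted p = 0.0472), DES at -2.75 (adjusted p = 0.0346) and VIM at 1.77 (adjusted p = 0.00581). KRT17 had a fitted value of -3.61 (adjusted p = 0.013), which depends on the prior count because YT shYEATS2 held 2 and 0 counts. In TC cells KRT8 and DES rested on 2 unlike libraries, with KRT8 at 315 and 60.1 CPM and DES at 2.85 and 0.703 CPM in TC shYEATS2.

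With shZZZ3 KRT8 lay on opposite sides of its controls in the TC and YT lines. Both TC shZZZ3 libraries (170.2 and 144 CPM) were above both TC shNT libraries (118 and 69.2), and both YT shZZZ3 libraries (148 and 85.9) were below both YT shNT libraries (156 and 160.2). The YT difference did not pass the test (log2 -0.43, adjusted p = 0.684). The difference between the fusions, -1.18 on the log2 scale, was not tested, because the TC comparison chose the set.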

How the results depend on the processing

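Of the members' calls, KRT5 and VIM in YT shZZZ3, KRT17 and VIM in YT shYEATS2 and VIM in the interaction held in all 19 alternatives. Members called in TC shYEATS2 went from 0 to 1 with no filter, and in YT shNT against TC shNT from 2 to 0 with the groups alone. Leaving out single libraries gave 0 members in TC shYEATS2, 3 to 5 in YT shYEATS2, 2 to 4 in YT shZZZ3, 0 to 3 between controls and 1 to 4 in the shYEATS2 interaction.

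Genes called in all moved by over 1.5 times as follows. TC shYEATS2 had 8, and 213 with no filter, 4 with the groups alone, 117 with DESeq2, 55 with GC correction and 0 to 77 without single libraries. TC shZZZ3 had 281, and 744 with no filter, 157 alone, 532 with DESeq2, 682 with GC correction and 50 to 495 without single libraries. YT shYEATS2 had 3821, and 8719 alone, 5734 with GC correction and 1527 to 5059 without single libraries. YT shZZZ3 had 1846, and 3803 with GC correction and 514 to 2580. YT shNT against TC shNT had 1699, and 2710 with no filter, 941 alone, 3407 with GC correction and 486 to 3108. The shYEATS2 interaction had 1725, and 2611 with no filter, 3615 with GC correction and 787 to 3023. The shZZZ3 interaction had 795, and 1549 with no filter, 1274 with DESeq2, 1954 with GC correction and 204 to 1146. The causes were not tested.

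Replicate numbers were not used as a pairing in the main fit. Over 15 pairs of groups the correlation of same-numbered deviations ran from -0.438 to 0.898, highest for TC shNT with YT shZZZ3. This range does not settle whether same-numbered libraries were handled together. With the replicate block TC shYEATS2 had 28 genes called, and no member call changed.

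Direction turned only for values that were not called. KRT17 in YT shZZZ3 was -0.061 with GC correction. Without single libraries it ran from -0.12 to 0.36 and KRT18 there from -0.19 to 0.60. In TC shYEATS2 KRT7 ran from -0.011 to 0.16, KRT8 from -0.66 to 1.73, KRT18 from -0.49 to 0.93, KRT19 from -1.39 to 0.14, DES from -1.40 to 0.49 and NES from -0.052 to 0.51. KRT18 ran from -0.19 to 0.77 between controls and from -0.58 to 0.84 in the shYEATS2 interaction. A group left with 1 library was assumed to vary like the others. Both libraries held under 20 counts of KRT14 and KRT19 in all 6 groups, of KRT5 and KRT7 in 4, of KRT17 in 3 and of DES in 2, where only large differences can be seen.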

Other observations

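Some lineage markers outside the filament families were also called, with adjusted p-values from edgeR's quasi-likelihood test. Of all genes, 9.61% were called higher and 11.1% lower with YT shYEATS2. The shares were 4.4% and 5.62% for YT shZZZ3, and 5.58% and 3.65% for YT shNT against TC shNT. The lists below held few tested genes, and whether their calls exceeded these shares was not tested. Of 8 endothelial markers, all tested, PECAM1 stood at a mean of 20.8 CPM in YT shZZZ3 against 2.38 in YT shNT (log2 3.08 ± 0.48, adjusted p = 0.00242) and CDH5 at 83.2 against 21.7 (log2 1.93 ± 0.41, adjusted p = 0.0121), while ERG fell in YT shYEATS2 from 9.49 to 0.870 (log2 -3.33 ± 0.50, adjusted p = 6.89e-04). TEK was lower in the YT than in the TC control (log2 -1.29 ± 0.31, adjusted p = 0.0251). Of 10 adipocyte and liposarcoma markers, 7 were tested, and the adipogenic factor CEBPA fell in YT shYEATS2 (log2 -3.56 ± 0.53, adjusted p = 4.39e-04) and YT shZZZ3 (log2 -1.54 ± 0.42, adjusted p = 0.0324). Of 10 neural progenitor genes, 4 were tested. MSI1, an RNA-binding protein often found with nestin, fell in YT shYEATS2 (log2 -2.98 ± 0.41, adjusted p = 3.90e-04) and in YT shZZZ3 (log2 -1.30 ± 0.35, adjusted p = 0.0341), where NES rose. SOX9 rose in YT shYEATS2 (log2 0.99 ± 0.15, adjusted p = 9.89e-04), as did PAX6 from low counts (log2 2.28 ± 0.91, adjusted p = 0.0454). Of 6 leukocyte markers, 3 were tested. In YT shYEATS2 CD14 rose from 0.739 and 0.748 CPM in YT shNT to 3.87 and 4.13 (log2 2.30 ± 0.53, adjusted p = 0.00796), and ITGAM was at least 6.26-fold lower than in YT shNT (adjusted p = 0.0025). Between the controls ITGAM was at least 6.79-fold higher with YT (adjusted p = 0.00281). Calls were lost in 7 of 19 alternatives for PAX6 (adjusted p up to 0.27, without YT shNT replicate 1), 2 for CD14 (0.071, without YT shNT replicate 1), 2 for CDH5 (adjusted p up to 0.105, without YT shNT replicate 1), 3 for TEK (0.179, without YT shNT replicate 1) and, in YT shZZZ3, 7 for CEBPA (0.149, without YT shNT replicate 1) and 6 for MSI1 (0.203, without YT shNT replicate 2).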
